A study of Homo sapiens with 3 samples.

Results

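The 130 genes described here had at least 2 times as much signal in 22Rv1 cells given MLPH transcript V4 as in cells given MLPH transcript V1. 22Rv1 is a human prostate cancer cell line. It was transfected with 20 μg of a plasmid carrying MLPH transcript V1 or transcript V4 for 48 h, and the control of the study received the empty vector. Poly(A) RNA was sequenced, and the deposited values are read counts per gene symbol, with 1 library per group. Counts were scaled to the library total (CPM). A gene was a member when it had at least 20 counts in the V4 library and when its V4 CPM plus 0.2, divided by its V1 CPM plus 0.2, was at least 2. Symbols beginning with any of 16 prefixes (COL, LAM, ITG, MMP, ADAM, SLC, RAB, KIF, CENP, HSP, DNAJ, NDUF, PSM, RPL, RPS and TPD52) were left out. The table held 15466 gene symbols. Of these, 7112 without such a prefix had at least 20 counts in the V4 library, and the members were 1.83% of them. Over all symbols, prefixes included, 137 of 7573 passed (1.81%).

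The members were chosen by their counts in the V1 and V4 libraries, so these values are a description and no test was made on them. Both libraries came from cells that had received an MLPH plasmid. A column for the empty vector could not be tied to its sample by name and was not analysed here. Whether V4 cells had more of a transcript or V1 cells had less of it than the control therefore cannot be told apart. In RNA from whole cultures, a larger share of cells with a transcript and more of it per cell cannot be told apart either. Each fold below is the V4 CPM over the V1 CPM without the added 0.2, with a 95% exact (Clopper-Pearson) conditional binomial interval. The intervals cover counting error only, and differences between cultures or library preparations lie outside them.

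MLPH encodes melanophilin, which links the small GTPase Rab27a on melanosomes to the motor protein myosin Va. Whether the members share a pathway was not tested. The 4 that lead the set belong to separate families. MYH1 encodes a fast skeletal muscle myosin heavy chain, the motor of the sarcomere. MMEL1 encodes a zinc metalloendopeptidase related to neprilysin, which cleaves peptides outside the cell. POLQ encodes DNA polymerase theta, which joins broken DNA ends through short stretches of matching bases. SHISA3 encodes a transmembrane protein of the endoplasmic reticulum known to retain Wnt and FGF receptors.

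The sequences just upstream of these 4 leading genes are shown because they are the members with the largest folds, and because they show how unlike their start regions are. Each line gives the 100 bases before the RefSeq start on GRCh38.p14, 5′ to 3′ on the gene's own strand. Capitals mark TATAAA, the TATA box letters, or GGGCGG, the GC box letters bound by Sp1. MYH1 is at chr17:10518543-10518642 on the minus strand, MMEL1 at chr1:2633017-2633116 on the minus strand, POLQ at chr3:121545989-121546088 on the minus strand and SHISA3 at chr4:42397388-42397487 on the plus strand.
MYH1: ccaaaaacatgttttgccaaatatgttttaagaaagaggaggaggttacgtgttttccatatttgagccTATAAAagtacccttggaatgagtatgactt
MMEL1: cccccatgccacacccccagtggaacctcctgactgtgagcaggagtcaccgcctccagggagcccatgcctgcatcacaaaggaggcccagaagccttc
POLQ: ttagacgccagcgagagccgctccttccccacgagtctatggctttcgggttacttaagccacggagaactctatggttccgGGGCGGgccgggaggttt
SHISA3: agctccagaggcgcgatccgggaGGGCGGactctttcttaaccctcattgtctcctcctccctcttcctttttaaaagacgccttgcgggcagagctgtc
The MYH1 stretch held TATAAA and had 35% G and C bases. The MMEL1 stretch held neither motif and had 64% G and C bases. The POLQ and SHISA3 stretches held GGGCGG and had 60% and 57%.

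The V1 library had 9253399 counts in all and the V4 library 9609381. A count of 0 allowed a level of up to 0.324 CPM in V1 and 0.312 CPM in V4, the level of 3 counts. MLPH had 7219 counts in V1 and 7773 in V4, a fold of 1.04 (1.00 to 1.07). Both plasmids carry MLPH and the counts are per gene, so this value is no check of the V1 and V4 labels. The 6 luminal prostate markers in the table summed to 5366 counts in V1 and 5390 in V4. The 3 fibroblast markers in the table summed to 1535 counts in V1 and 48 in V4. COL1A2 (976 and 4) and COL3A1 (526 and 0) carried this sum, while LUM had 33 and 44. Leukocyte markers summed to 93 and 65 counts, with PTPRC and CD3E at 0 in both libraries. Endothelial markers summed to 1 and 11 counts. The part of other cell types in the members' values was not tested.

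Most members had few counts, and whether this meant few transcripts in the cells was not tested. Their median was 11 counts in V1 and 32.5 in V4, or 1.19 and 3.38 CPM. All members summed to 2868 counts in V1 and 7224 in V4, which was 0.0310% and 0.0752% of the library totals. The median fold was 2.55, with a range from 2.03 to 19.3. A fold of 5 or more was held by 11 members and a fold under 2.5 by 60. The interval lay above 1 in 128 of the 130, and its lower bound was at least 2 in 10. These intervals rest on the counts that the rule chose by, so most had to lie above 1 and this supports nothing further. The 2 members whose interval reached below 1 were EIF4E, the cap-binding translation factor, and FAM211A, each with 9 counts in V1 and 21 in V4 (fold 2.25, 0.987 to 5.57). The mirrored rule, with at least 20 counts in V1 and V1 over V4 of at least 2, took 325 of 7213 genes, or 4.51%. Genes past the fold were thus more numerous on the V1 side than on the V4 side.

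**Figure D1:**
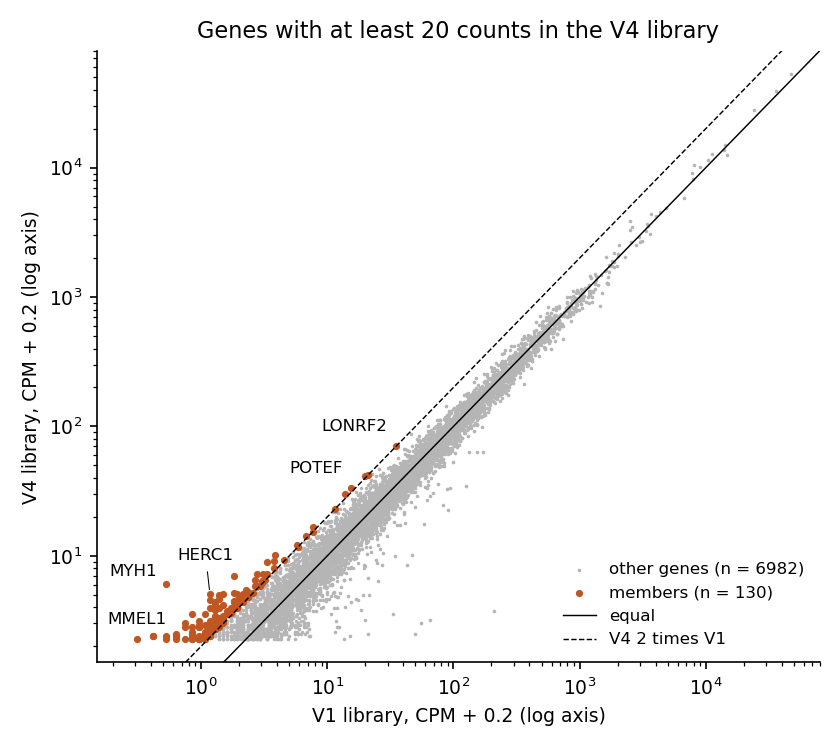
Each point is a gene with at least 20 counts in the V4 library, at its level in the V1 library (x axis) and in the V4 library (y axis), both in CPM plus 0.2 on log axes. The 130 members (orange) lie on or above the dashed line of a 2-fold ratio, most of them at the low end, with MYH1 and MMEL1 farthest from the line and LONRF2 at the highest level.

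MYH1 had the clearest gap of the set. It had 3 counts in V1 (0.324 CPM, 0.0669 to 0.947) and 56 in V4 (5.83 CPM, 4.40 to 7.57), a fold of 18.0 (5.84 to 89.8). MMEL1 had 1 count in V1 and 20 in V4, a fold of 19.3 with a very wide interval (3.08 to 798). POLQ and SHISA3 had the same counts, 2 in V1 and 21 in V4, a fold of 10.1 (2.47 to 88.9). The V1 levels of these 4 genes were at or under the level of 3 counts. Their V1 and V4 Poisson intervals did not overlap, which describes genes picked for these same counts and supports nothing further. No replicate was there to measure the spread between cultures. The 4 together had 8 counts in V1 and 118 in V4.

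**Figure D2:**
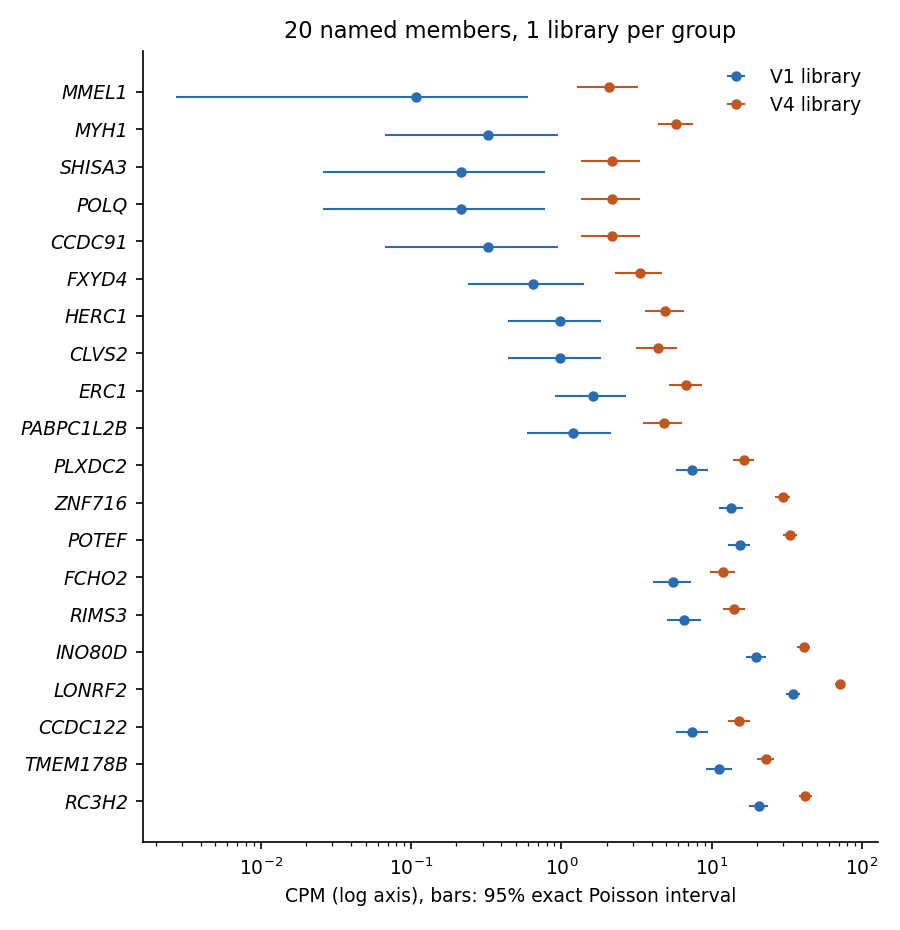
CPM (log axis) in the V1 library (blue) and the V4 library (orange) for the 10 members with the highest lower bound of the fold and the 10 with the most V4 counts. Bars are 95% exact Poisson intervals of counting error. The upper rows, from MMEL1 to PABPC1L2B, have wide gaps at low levels, and the lower rows have folds close to 2 at higher levels with narrow intervals.

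Outside these 4 genes, 6 members had a lower bound of at least 2. HERC1, a giant HECT-type ubiquitin ligase, had 9 counts in V1 and 47 in V4, a fold of 5.03 (2.44 to 11.7). ERC1, a scaffold of the exocytic active zone that also binds the IkappaB kinase complex, had 15 and 65 counts, a fold of 4.17 (2.35 to 7.88). CLVS2, a clathrin-associated lipid-binding protein of neurons, had 9 and 42 counts (4.49, 2.16 to 10.5). FXYD4, a small regulator of the sodium pump, had 6 and 32 counts (5.14, 2.12 to 15). These 4 had at most 15 counts in V1 and at least 32 in V4. PABPC1L2B, a member of the poly(A)-binding protein family, had 11 and 46 counts (4.03, 2.05 to 8.62). CCDC91, a binding partner of GGA adaptors in transport from the trans-Golgi, had 3 and 21 counts (6.74, 2.01 to 35.3).

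The most abundant members had folds just above 2 with narrow intervals. LONRF2, a RING finger and LON domain protein, had 322 counts in V1 and 682 in V4 (34.8 and 71.0 CPM), a fold of 2.04 (1.78 to 2.34). RC3H2, or Roquin-2, which binds stem-loops in messenger RNAs and directs their decay, had 191 and 403 counts (2.03, 1.71 to 2.43). INO80D, a subunit of the INO80 chromatin remodelling complex, had 183 and 393 counts (2.07, 1.73 to 2.48). These 3 genes had the highest counts of the set in both libraries. The others in the top 10 by V4 counts were POTEF, ZNF716, TMEM178B, PLXDC2, CCDC122, RIMS3 and FCHO2. PLXDC2, a plexin-domain transmembrane protein, had 69 and 158 counts (2.21, 1.65 to 2.97). RIMS3, a presynaptic active zone protein, had 61 and 136 counts (2.15, 1.58 to 2.95). FCHO2, which bends membrane at nascent clathrin-coated pits, had 51 and 114 counts (2.15, 1.53 to 3.06). TMEM178B had 104 and 220 counts (2.04, 1.61 to 2.60) and ZNF716, a zinc finger gene, 125 and 286 (2.20, 1.78 to 2.74). The highest fold among these 10 was the 2.21 of PLXDC2, well under the folds of the members with few counts above.

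The threshold passed through a dense band of genes. Just inside it were C1orf21 with 52 counts in V1 and 110 in V4, HUS1B with 25 and 54, and CCDC122 with 69 and 146. Just outside were UGT2B11 with 43 and 91 counts, and ABL1 and TAS2R3 with 15 and 33 each. Members and non-members at this edge differed by a few reads. A further 11 genes had a ratio of at least 2 and 19 counts in V4, among them MYOZ1, a sarcomere Z-disc protein gene, with 3 and 19 counts. The excluded prefixes held 7 genes past both thresholds, including KIF5A with 79 and 167 counts and ADAM22 with 4 and 29.

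The family of each leading gene was read as a whole, and each held 1 member. Of the striated muscle myosin heavy chain genes, MYH1 alone had 20 counts in V4. MYH8 had 3 and 11 counts (fold 3.53, 0.933 to 19.7) and MYH13 had 6 and 12 (1.93, 0.669 to 6.25), with intervals that included 1. MYH1 and the fast myosin genes MYH2 and MYH4 begin with similar coding bases but share few full read lengths. Their first 90 coding bases are shown, from GENCODE v29, with differences from MYH1 in capitals.
MYH1: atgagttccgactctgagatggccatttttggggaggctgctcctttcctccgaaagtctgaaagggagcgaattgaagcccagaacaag
MYH2: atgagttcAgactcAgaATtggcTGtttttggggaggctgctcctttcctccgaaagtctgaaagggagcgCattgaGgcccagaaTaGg
MYH4: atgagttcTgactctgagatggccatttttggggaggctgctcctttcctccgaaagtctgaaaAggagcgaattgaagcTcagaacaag
MYH2 differed from MYH1 at 10 of these bases and MYH4 at 3. Of all 150-base stretches of the MYH1 transcript, the length of a read, 2.03% occurred in MYH2 and 1.23% in MYH4. MYH4 had 0 counts in both libraries, and MYH2 was not among the gene symbols of the table.

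Other sarcomere genes were mixed. Of the 4 with at least 20 counts in V4, none was a member. ACTA1, skeletal muscle actin, had 98 counts in V1 and 92 in V4 (fold 0.904, 0.673 to 1.21), and TNNT1, slow troponin T, had 76 and 65 (0.824, 0.582 to 1.16). Both intervals included 1. Below the count minimum, the fast troponin C gene TNNC2 had 3 and 15 counts (4.81, 1.36 to 25.9), the muscle creatine kinase gene CKM had 1 and 13 (12.5, 1.88 to 532), and the cardiac actin gene ACTC1 had 17 and 1. The titin and nebulin genes, TTN and NEB, were at 0 in both libraries. The 8 skeletal muscle markers in the table summed to 181 counts in V1 and 228 in V4, a list that includes MYH1 itself. Among members, the muscle-type mitochondrial creatine kinase gene CKMT2 had 10 and 35 counts (3.37, 1.63 to 7.63).

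POLQ was the 1 member among 15 DNA polymerase genes with at least 20 counts in V4 (6.67%, beside 1.83% over all genes). POLE3, a histone-fold subunit of polymerase epsilon and the most abundant of them, had 3107 and 3036 counts (fold 0.941, 0.895 to 0.990). POLE, the catalytic subunit, had 2183 and 2859 (1.26, 1.19 to 1.33). POLE4 had 752 and 506 (0.648, 0.578 to 0.726), and POLB, the base excision repair polymerase, had 76 and 107 (1.36, 1.00 to 1.84). The median log2 ratio over the family was -0.00, beside -0.03 over all genes. Beside SHISA3, SHISA5 had 305 counts in V1 and 265 in V4, SHISA4 had 113 and 72, and SHISA9 had 10 and 13. In the family of MMEL1, the endothelin-converting enzyme genes ECE2 and ECE1 had 365 and 290 counts and 41 and 27 counts. The more abundant relatives of both genes were thus level or lower in V4.

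**Figure D3:**
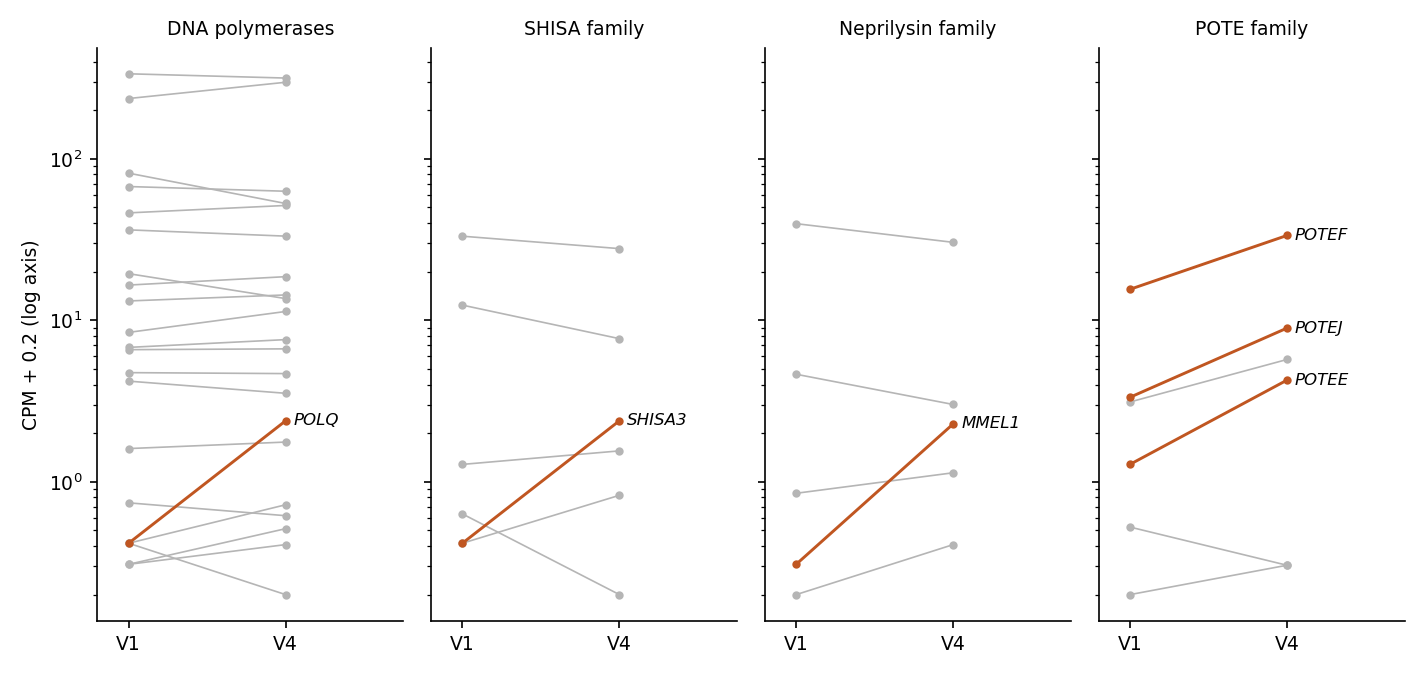
Each line joins the level of a gene in the V1 and V4 libraries (CPM plus 0.2, log axis), with members in orange and the other genes of the family that had at least 1 count in grey. POLQ, SHISA3 and MMEL1 slope steeply upward from a low level. The more abundant genes of their families have smaller slopes in either direction, with POLE and POLB among those that rise. In the POTE family all 4 genes above 1 CPM slope upward.

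The POTE ankyrin genes, a primate family expressed in prostate, ovary, testis and placenta, were looked at as a group after their values were seen. POTEF had 142 counts in V1 and 320 in V4, a fold of 2.17 (1.78 to 2.66). POTEJ had 29 and 84 (2.79, 1.81 to 4.41), and POTEE had 10 and 39 (3.76, 1.84 to 8.44). POTEI, with 27 and 53 counts (1.89, 1.17 to 3.13), fell just short of the threshold. All 4 were higher in V4, but they are not independent, because their sequences are near copies. The 150 bases below, a full read length, are the same in all 3 members and begin at coding base 919 of POTEF and POTEE and 808 of POTEJ in GENCODE v29.
POTEF, POTEE and POTEJ: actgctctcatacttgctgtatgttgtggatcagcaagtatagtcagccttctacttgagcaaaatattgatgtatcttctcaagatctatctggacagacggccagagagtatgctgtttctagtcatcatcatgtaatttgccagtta
Of the 150-base stretches of POTEJ, 63.8% occurred in POTEI, and of those of POTEF, 30.5% occurred in POTEE. How the counting treated reads that match several of these genes is not known here. Summed over the 4 genes, which does not depend on that split among them, the counts were 208 in V1 and 496 in V4, a fold of 2.30 (1.95 to 2.71).

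Summing near copies changed other members. PABPC1L2B shared 61.4% of its 150-base stretches with PABPC1L2A, which had 26 counts in V1 and 25 in V4, and the pair together had 37 and 71 counts (fold 1.85, 1.23 to 2.83), under the threshold. ANKRD36 had 8 and 26 counts, while ANKRD36B, which holds 26.4% of its stretches, had 27 and 8. Together they had 35 and 34 counts (0.935, 0.566 to 1.54), so no gap remained in this pair. ANKRD36C, a member with 10 and 28 counts that holds 6.91% of the stretches of ANKRD36, was not in that sum. TRIM49B with TRIM49C had 67 and 107 counts (1.54, 1.12 to 2.12). This sum left out TRIM49, which had 52 and 39 counts and holds 9.39% of the stretches of TRIM49B. At least 10% of stretches were shared with another gene in 10 of 120 members with a transcript (8.33%), against 9.49% of the other genes. The share of genes with near copies was thus close to that among other genes.

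Zinc finger genes named ZNF, ZFP, ZSCAN, ZKSCAN or ZBTB, mostly DNA-binding repressors, gave the largest number of members among the lists of gene families. They supplied 9 of 240 genes with at least 20 counts in V4 (3.75%, beside 1.83% over all genes). The share over all genes fell from 7.81% at 20 to 49 counts in V4 to 0.0415% at 500 or more. The 1.83% is therefore not matched for count to this or any other list. The same family had 10 of 239 genes in the mirrored set (4.51% over all genes), and its median log2 ratio was 0.15. ZNF154 had 6 and 25 counts (fold 4.01, 1.61 to 12), and ZFP91 had 27 and 68 (2.43, 1.53 to 3.94), and ZNF716 is given above. ZNF208 with 22 and 48 counts and ZNF257 with 12 and 30 are neighbours on chromosome 19. The other neighbouring pair among 123 members with a place in the RefSeq table was MND1, a meiotic recombination gene with 7 and 20 counts, and LOC729870 with 15 and 36, on chromosome 4.

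Cadherins and protocadherins, the calcium-dependent adhesion molecules, had 3 members among 22 genes (13.6%, beside 1.83% over all genes) and 0 of 23 genes in the mirrored set (4.51% over all genes). PCDHB12 had 7 and 28 counts (fold 3.85, 1.64 to 10.4), CDH6, or kidney cadherin, had 18 and 47 (2.51, 1.43 to 4.60), and PCDHB1 had 29 and 68 (2.26, 1.44 to 3.62). E-cadherin, CDH1, the epithelial cadherin of these cells, had 6389 and 8211 (1.24, 1.20 to 1.28). The list's median log2 ratio was 0.13. Over all genes the share was 7.81% at 20 to 49 counts in V4, where PCDHB12 and CDH6 lay. It was 1.70% at 50 to 99 counts, where PCDHB1 lay.

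Among transcription factors, nuclear receptors had 2 members of 13 genes (15.4%, beside 1.83% over all genes). They had 0 of 14 genes in the mirrored set (4.51% over all genes). The thyroid hormone receptor alpha gene THRA had 7 and 25 counts (fold 3.44, 1.45 to 9.42). RORB, a retinoic acid-related orphan receptor known from retina and circadian circuits, had 34 and 96 (2.72, 1.82 to 4.15). Over all genes the share was 7.81% at the V4 count level of THRA (20 to 49) and 1.70% at that of RORB (50 to 99). Of homeobox, forkhead, SOX and GATA factor genes, 3 of 75 were members (4.00%, beside 1.83% over all genes). In the mirrored set were 3 of 73 (4.51% over all genes). The members included FOXB2 with 7 and 25 counts and FOXA3, a hepatocyte and endoderm factor, with 8 and 22. FOXA1, the pioneer factor of luminal prostate cells, had 5861 and 6205 (1.02, 0.984 to 1.06). The homeobox gene GBX2, which patterns the midbrain and hindbrain and was not in that list, had 6 and 23 counts (3.69, 1.46 to 11.1). NCOA3, a coactivator of nuclear receptors, had 13 and 34 (2.52, 1.30 to 5.20).

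Channels, signalling proteins and secreted factors gave scattered members. Ion channel genes had 2 of 34 (5.88%, beside 1.83% over all genes). These were the GABA receptor subunit GABRR2 with 15 and 41 counts and the potassium channel KCNJ3 with 16 and 37. The same list had 9 of 40 genes in the mirrored set, beside 4.51% over all genes. WNT genes had 1 of 20 (5%), WNT8B with 9 and 27 counts. Growth factors and their receptors had 2 of 45 (4.44%), GDF6, a BMP family ligand, with 14 and 33 and TNFSF15 with 12 and 28. The growth factor list had 18 of 60 genes in the mirrored set, beside 4.51% over all genes, and its median log2 ratio was -0.34. Other single members were the A-kinase anchor AKAP8 with 16 and 37, the receptor kinase ADRBK2 (GRK3) with 12 and 31, the mitochondrial transporter ABCB8 with 15 and 48 (3.08, 1.70 to 5.92) and apolipoprotein D, APOD, with 9 and 28. Each of these lists held 1 or 2 members, so no list rests on more than a pair of members.

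Cilium and flagellum genes that now carry CFAP symbols were gathered after their values were seen, and 4 of 15 with at least 20 counts in V4 were members (26.7%, beside 1.83% over all genes). In the mirrored set were 2 of 14 (4.51% over all genes), WDR66 with 85 counts in V1 and 15 in V4 and C3orf67 with 24 and 8. C12orf55 (CFAP54) had 3 and 20 counts (fold 6.42, 1.90 to 33.7), CCDC11 (CFAP53) had 23 and 61 (2.55, 1.56 to 4.32), C9orf117 (CFAP157) had 11 and 29 (2.54, 1.23 to 5.63) and TTC18 (CFAP70) had 8 and 21 (2.53, 1.08 to 6.60). Over all genes at 20 to 49 counts in V4, where C12orf55, C9orf117 and TTC18 lay, the share was 7.81%. The group as a whole was centred near 0, with a median log2 ratio of 0.07. The separate list of dyneins and cilium genes had 0 members among 17.

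Messenger RNA decay factors and antigen presentation genes, also grouped after their values were seen, were divided in direction. ZC3H12A (Regnase-1), an endonuclease that degrades inflammatory messenger RNAs, had 11 and 30 counts (fold 2.63, 1.28 to 5.81) and is a member beside RC3H2, whereas its relative ZC3H12D had 8 and 1. HLA-DMB, the beta chain of the HLA-DM peptide editor, had 5 and 27 counts (5.20, 1.97 to 17.3). Its partner chain HLA-DMA had 49 and 25 (0.491, 0.291 to 0.811). The 2 chains thus differed in direction between the libraries.

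Several members encode proteins that most cells make in quantity, yet had few counts here. This was not particular to the members. The giant linker genes FLNA and PLEC, which were not members, had 1 and 1 counts and 1 and 0 counts. CLTC, the clathrin heavy chain, had 15 counts in V1 and 40 in V4, which is 1.62 and 4.16 CPM. EIF4E had 9 and 21 counts, as given above. MACF1, a giant linker of actin and microtubules, had 4 and 20 counts (fold 4.81, 1.61 to 19.4). It was the 1 member of 7 giant linker genes tested (14.3%, beside 1.83% over all genes). These genes were picked after their values were seen. So were the members VPS13B, a giant lipid transfer protein, with 17 and 43 counts, EXOC7, an exocyst subunit, with 26 and 57, and RAE1, a messenger RNA export factor, with 10 and 25. Members with roles in DNA replication or repair included, beside POLQ, DTL, the substrate receptor of the CRL4 ubiquitin ligase, with 12 and 47 counts (3.77, 1.97 to 7.81), and the nuclease DCLRE1B (Apollo) with 24 and 67 (2.69, 1.66 to 4.48).

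Long non-coding, antisense and LOC-numbered genes had 9 members of 223 (4.04%, beside 1.83% over all genes). In the mirrored set were 12 of 219 (4.51% over all genes). HOXA-AS2, an antisense RNA of the HOXA cluster, had 11 and 43 counts (fold 3.76, 1.91 to 8.09). Genes known only by an open reading frame, KIAA, FAM or similar number had 16 members of 605 (2.64%, beside the same 1.83%). They had 30 of 623 in the mirrored set, beside the same 4.51%. By span, 80 of 124 members (64.5%) overlapped another RefSeq gene, against 56% of the other genes. At 20 to 99 counts in V4 the shares were closer, 63.7% and 60.2%. Whether the counting used strand is not known here, so reads of a member and of a gene it overlaps cannot be told apart.

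Many lists held 0 members. Among these were double-strand break repair and Fanconi genes (0 of 19), mitosis genes (0 of 13), S phase and replication genes (0 of 20), chromatin regulators (0 of 20), neuroendocrine genes (0 of 8), interferon-stimulated genes (0 of 11), axon guidance genes (0 of 26), steroid and drug metabolism genes (0 of 38) and glycosyltransferases (0 of 61). Chromatin regulators and neuroendocrine genes had medians above 0 on the log2 scale, at 0.34 and 0.37. The neuroendocrine list also had 1 of 8 genes in the mirrored set, beside 4.51% over all genes. NF-kappaB and inflammatory targets had 0 members of 4 and 9 of 10 genes in the mirrored set, with a median log2 ratio of -4.20. At 1.83%, lists of this length hold few members or none, so a 0 says little about any of them. Of the 130 members, 63 were in no list.

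Members became rarer as counts rose. At 20 to 49 counts in V4, 101 of 1294 genes were members (7.81%). The share was 18 of 1056 (1.70%) at 50 to 99 counts, 10 of 2350 (0.426%) at 100 to 499, and 1 of 2412 (0.0415%) at 500 or more. The rule reads the same V4 counts, so this is a description of where the rule found genes. In V1, 99 of the members had fewer than 20 counts.

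**Figure D4:**
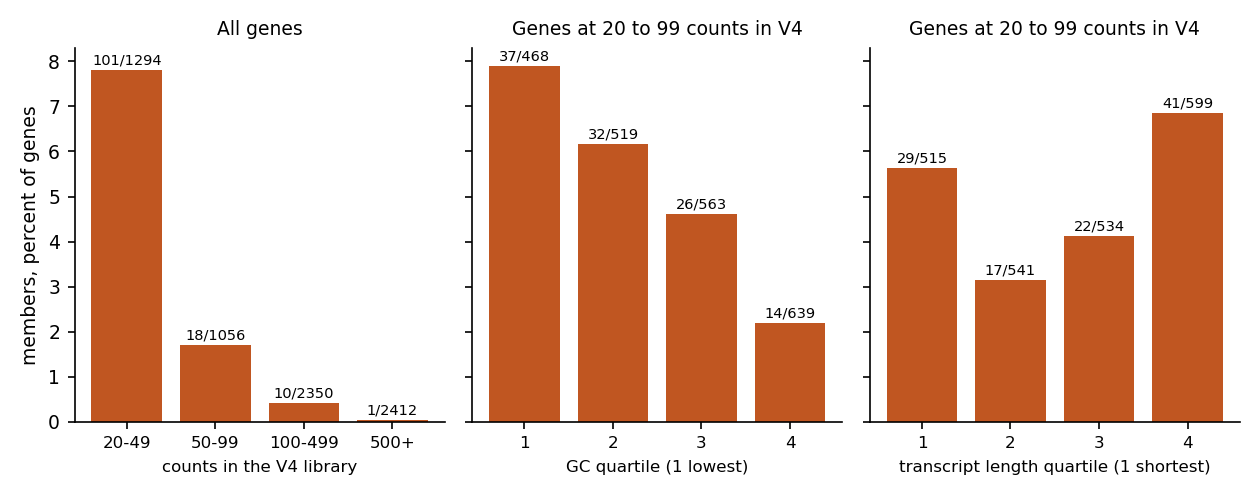
Bars give members as a percent of genes, with members and genes written above each bar, by V4 count (left), by quartile of transcript GC content (middle) and by quartile of transcript length (right). The middle and right panels hold genes at 20 to 99 counts in V4 only. The share falls from 7.81% to 0.0415% with count and from 7.91% to 2.19% with GC content, and is highest in the longest quartile.

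Members had transcripts poorer in G and C than other genes, a feature the rule did not use. Among genes at 20 to 99 counts in V4, the median GC content of the longest GENCODE transcript was 45.0% in members (quartiles 41.0 and 51.3) and 50.8% in the other genes (43.2 and 58.7). The mirrored set at 20 to 99 counts in V1 lay on the other side, at 53.4% (45.6 and 60.9). From the lowest to the highest GC quartile of all tested genes, members were 7.91%, 6.17%, 4.62% and 2.19% of genes at these counts. Over all genes tested, the log2 ratio of V4 over V1 followed GC content too, with a fitted value of 0.13 at 38.6% GC and -0.21 at 62.0% GC. With this trend removed, 92 of the 120 members that have a GC value stayed past the threshold and 28 did not. GC content thus moved with membership and with the ratio of the whole table alike, and its part in any single member was not tested.

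**Figure D5:**
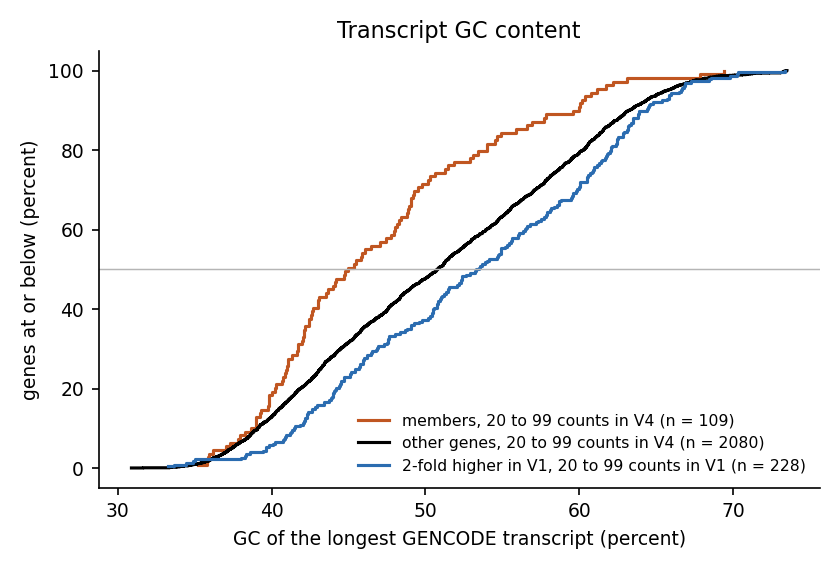
Cumulative percent of genes (y axis) at or below a given GC content of the longest transcript (x axis, percent), at matched counts of 20 to 99. Members (orange, median 45.0%) lie to the left of other genes (black, median 50.8%), and genes 2-fold higher in V1 (blue, median 53.4%) lie to the right. The grey line marks the median.

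Transcript length differed less. At 20 to 99 counts the median was 3940 bases in members (quartiles 2184 and 6094) and 3471 in other genes (2266 and 5252). The longest quartile had the highest share of members (41 of 599, 6.84%), the shortest had 29 of 515 (5.63%), and the 2 middle quartiles had 17 of 541 (3.14%) and 22 of 534 (4.12%). Genes with a single RefSeq transcript were 29.2% of members and 19.6% of other genes at these counts, and 28.2% and 26.6% over all counts. They were also 33.3% of the mirrored set at 20 to 99 counts in V1, against 18.6% of other genes there. This feature was thus not particular to the members. Of the 124 members with a RefSeq entry, 93.5% encode a protein, against 98.5% of the other genes. At 20 to 99 counts the shares were 92.9% and 97.4%.

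The start regions of members held the TATA box letters more often than those of other genes at the same counts. A promoter, here the 250 bases before and 50 after the RefSeq start, was found for 96 members. Both strands were searched for 11 motifs, of which TATAAA and GGGCGG are given. At 20 to 99 counts these 2 had the largest gaps, in percentage points, between members and other genes. They are thus the extremes of a search over 11 motifs. The next gap was that of CACGTG, found in 5.81% of member promoters and 10.04% of the others. Median GC content of the promoters at these counts was 63% in members and 65.3% in other genes, and its part in the motif shares was not tested. TATAAA was in 14 of 86 member promoters at 20 to 99 counts (16.3%), in 117 of 1653 promoters of other genes at these counts (7.08%) and in 11.5% of all 35116 promoters in the table. GGGCGG was in 45 of the 86 (52.3%), in 67.6% of the others and in 45.0% of all. Over all counts, TATAAA was in 14.6% of member promoters, 9.70% of 237 mirrored-set promoters and 5.94% of other genes' promoters. The TATAAA share was thus above that of other genes in both sets. For GGGCGG these shares were 52.1%, 71.7% and 71.2%. Of the leading genes, MYH1 held TATAAA and the other 3 held GGGCGG within this longer window. A match is a description of letters, not of a site in use, and genes of these sets are not replicates, so no test was made.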

How the data were processed

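The authors deposited 1 table of raw read counts, with a row per gene symbol and no normalization. The submitters' processing notes name build hg19. Poly(A) enrichment and 150 bp single-end sequencing are per the labels' protocols. Aligner, counter, annotation, strand setting and any pooling of runs: not given in the sources used here. A column was used where its name matched the title of 1 sample. Another column (columns not used: 1) matched no label and was used in no step, so the planned comparison with the empty vector was not run.

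Rows numbered 15512. Where a symbol had several rows (21 symbols) they were summed, and 22 rows with a date in place of a symbol were left out, none of which passed the rule. CPM came from column totals of 9253399 (V1) and 9609381 (V4). With 1 library per group no test was made. Intervals are 95% exact binomial or Poisson intervals (scipy 1.17.1). The members and the gene lists were chosen with earlier results of these data known. List medians cover genes with at least 40 counts over both libraries.

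Named genes were MLPH, the 4 leading genes and their families, the 10 members with the highest lower bound, the 10 with the most V4 counts, up to 4 members per list with its most abundant other gene, the 3 genes on either side of the threshold and neighbouring pairs. Others are marked as chosen after their values were seen, or are EIF4E, FAM211A, CKMT2, GBX2, NCOA3, DTL, DCLRE1B, MYOZ1, KIF5A, ADAM22, ACTC1, WDR66 and C3orf67, likewise chosen then. Some genes and lists that the rule takes are not reported here.

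Length, GC content, coding bases and shared stretches came from the longest GENCODE v29 transcript (GRCh38) for 120 members, and promoters, overlaps and neighbours from RefSeq (GRCh38.p14), in which 124 members had an entry. These builds differ from hg19. Near copies were summed after the data were seen. Alternatives used edgeR 4.0.16 TMM and upper-quartile factors, DESeq2 1.42.0 median-of-ratios factors, totals without mitochondrially encoded genes, thinning, other offsets, count minimums and fold thresholds, and lowess trends (statsmodels 0.14.6, fraction 0.3). The rule was tested on simulated data.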

Additional observations from a re-analysis of the deposited data

How the results depend on the processing

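The rule finds 130 members and 325 genes in the mirrored set. Scaling kept all 130 members, and added others, to 145 under TMM, 154 under upper-quartile scaling, 161 under median of ratios (2.26% of tested genes) and 158 with totals without mitochondrially encoded genes (2.22%). Thinning gave 124 members, 115 of them among the 130. An offset of 0.5 CPM left 96 (1.35%) and of 1 CPM 50 (0.703%). A minimum of 10 counts gave 272 members (3.33%) and 537 mirrored genes, a minimum of 50 gave 29 (0.498%) and 149, and no minimum gave 935 (6.37%) and 1435. A fold of 1.5 gave 476 (6.69%) and 694, and a fold of 3 gave 29 (0.408%) and 152. With a length trend removed there were 107 members, 94 of them among the 130, and with a GC trend removed 106, 92 of them among the 130. Genes without a length or GC value drop out of these fits by construction. The median transcript length of members was 5739 bases at a minimum of 50, 3131 without a minimum and 3113 with the length trend removed. Their median GC content was 48.2% without a minimum and 48.9% with the GC trend removed. Over the scaling, offset and trend settings, the ratios of 58 named members ranged from 1.62 to 12.7, none of them below 1, and that of MYH1 from 5.16 to 12.7. An interval above 1, or keeping repeated symbols apart, moved the number of members by at most 2. Of the values for single genes, lists and promoter motifs under all settings, 1798 stayed within their interval, or within 1.5 times for a count, and 224 moved.

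With 1 library per group no sample could be left out. No paired analysis was possible because each group has 1 library and no test was made. At the members' median of 11 counts in V1, counting error alone is wide, and a member near the threshold cannot be told from a gene just under it.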
